A study of Mus musculus with 6 samples.

Results

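The genes described here are the 39 members of the 4 mouse Hox clusters, which were picked from the 34298 gene names of the array by their symbols alone (Hoxa, Hoxb, Hoxc or Hoxd followed by a number). HoxA holds 11 of them, HoxB 10, HoxC 9 and HoxD 9. They are covered by 45 probes, and each gene was read from its brightest probe, the one with the highest mean over all 6 arrays. The genes were thus picked by name and the probes by brightness, which favours a probe that is bright in either tissue, and both rules were set with earlier results of these data known.

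Organoids of the esophagus and the stomach were compared. These are 3D epithelial cultures grown from adult tissue, here taken from wild-type C57BL/6 female mice, and all of them carried the control label and were harvested at passage 0. Mice 1, 2 and 4 each gave 1 esophagus and 1 stomach array, so that n = 3 for each tissue. The harvest was on day 8 for 5 of the cultures and on day 7 for the stomach culture of mouse 4. By the authors' general methods, the stomach cultures were started from corpus glands and received WNT3A, R-spondin1 and gastrin. The esophagus cultures were started from minced, collagenase-treated tissue and received forskolin without WNT3A and R-spondin1. The sample labels do not name the medium, and the authors also grew esophageal organoids with both of these factors. Both media contained EGF, noggin, FGF-10, nicotinamide, a TGF-β receptor inhibitor and a ROCK inhibitor. Tissue and medium changed together and cannot be told apart. In bulk RNA of this kind, fewer cells of a type and less RNA per cell cannot be told apart either.

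Hox genes encode transcription factors that bind DNA through the homeodomain. In the embryo they are switched on in the order in which they lie on the chromosome, low-numbered (anterior) genes first and nearest the head, high-numbered (posterior) genes later and nearest the tail, and many adult tissues keep part of this pattern. Genes with the same number in different clusters are paralogs with similar proteins. In the gut tube, anterior and central members mark the foregut and posterior members mark the hindgut, although much of this knowledge comes from the mesenchyme and not from the epithelium.

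The text gives deposited log2 values, which were quantile normalized by the authors. A level near 4.8 is the bottom of this scale: genes that the scanner software marked as well above background on no stomach array had a median stomach level of 4.80, with a 5th to 95th percentile range of 4.54 to 5.14. On each array, 45.5% to 51.1% of the spots were well above background and no spot was saturated. Levels of different probes cannot be set against each other, so that levels are compared between tissues for 1 gene at a time. A gene was called when the adjusted p (limma, Benjamini-Hochberg over all 55681 probes) was under 0.05.

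Of the 39 Hox genes, 11 were higher in esophageal organoids and 0 were higher in stomach organoids. By the same limma test, 7.15% of all genes differed in favour of the esophagus and 7.70% in favour of the stomach. Among the called members were Hoxa3, Hoxa4, Hoxa7, Hoxb2, Hoxb4, Hoxc4, Hoxc5, Hoxc6, Hoxc8 and Hoxd9. At an unadjusted p under 0.05, 14 members passed, all of them higher in the esophagus and past 1.5-fold, against 21.7% of all genes at that p and fold in either direction. The median log2 fold change (esophagus minus stomach) over the 39 members was 0.14, against 0.03 over all genes, since 28 members were not called. Leaving out the stomach array of mouse 2 reduced the number of called members from 11 to 7, and Hoxa3, Hoxb2, Hoxb4, Hoxc4, Hoxc5 and Hoxc6 were among these. The sizes of the differences depend on how dim values are scaled: with the scanner's processed signal the log2 fold change of Hoxa3 moved from 4.46 to 7.55.

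The tissues were also compared by which genes rose above background at all. In the esophagus, 9 of the 39 members were well above background on all 3 arrays, against 48.4% of all genes. In the stomach 0 of 39 were, against 51.2% of all genes. Single arrays gave 11, 13 and 14 members above background in the esophagus of mice 1, 2 and 4, and 4, 0 and 0 in the stomach. The 4 members marked on the stomach array of mouse 1 were Hoxa7, Hoxa9, Hoxb3 and Hoxb9, and they read between 5.19 and 5.59 on that array.

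**Figure D1:**
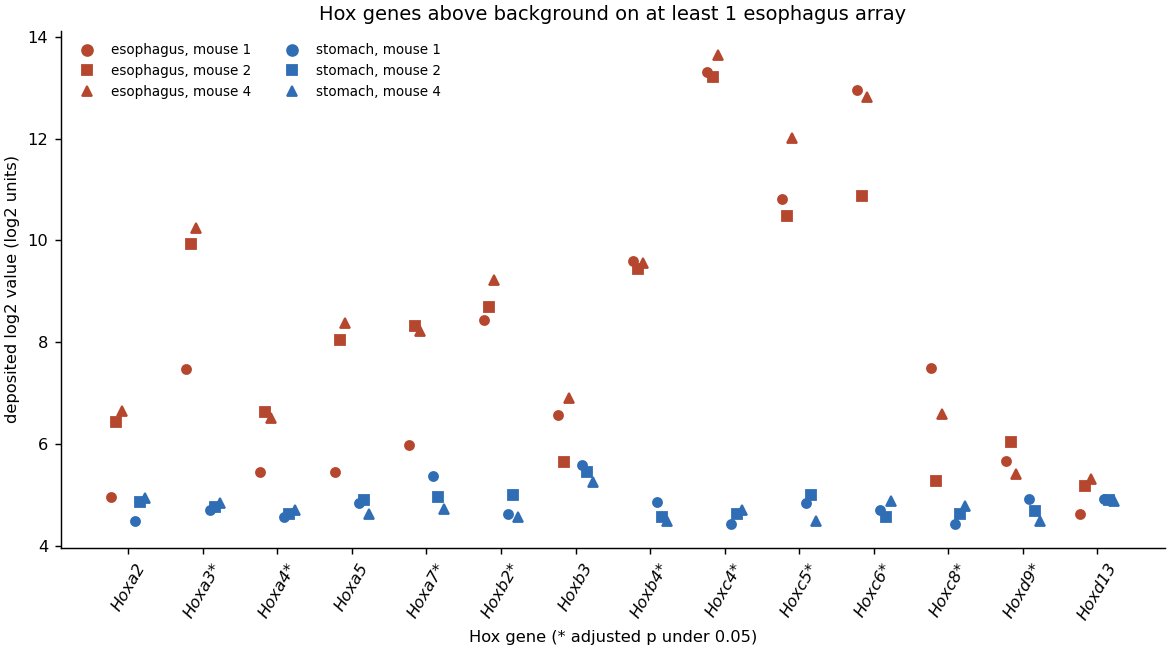
Deposited log2 value of each array (y axis) for 14 Hox genes that were above background on at least 1 esophagus array (x axis, an asterisk marks an adjusted p under 0.05). Red symbols are esophagus and blue symbols stomach arrays, with 1 shape for each mouse. All stomach points lie between 4.42 and 5.59, whereas the esophagus points of Hoxc4 lie between 13.21 and 13.65.

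The array probes are 60 bases long. The last 30 bases of the probes of 10 called members are shown, because they state which stretch of each gene was measured. Positions are those of the array files (mouse build mm9), and capitals mark AATAAA or ATTAAA, the letters of the common polyadenylation signals, where they occur.
Hoxa3 (chr6:52119087-52119116, minus strand): ttgctgctcacattctgagaaacaaaacaa
Hoxa4 (chr6:52140287-52140316, minus strand): tcacttatgtgccctactcatctcctgctc
Hoxa7 (chr6:52165626-52165655, minus strand): attgattttagttacaaaaatggggggaaa
Hoxb2 (chr11:96215152-96215181, plus strand): aataATTAAActctagtgggagagggtttt
Hoxb4 (chr11:96182915-96182944, plus strand): gacaacagaAATAAAtgtttggtttcttgt
Hoxc4 (chr15:102867243-102867272, plus strand): cccgtgatcaatAATAAAccagtggctgtg
Hoxc5 (chr15:102847813-102847842, plus strand): tattaatgcttatgctctttgaatttatta
Hoxc6 (chr15:102842273-102842302, plus strand): ttctcgaatatttAATAAAactgatattat
Hoxc8 (chr15:102821268-102821297, plus strand): gaaccggcctattacgactgccggttccct
Hoxd9 (chr2:74537706-74537735, plus strand): agaaaccaagtggctttggagtcttgtcct
One of these letter strings was found on the sense strand in the whole probe of 5 of the 11 called members, in 11 of all 45 Hox probes and in 13.7% of all probes.

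In HoxC, all 4 called members lay at the low-numbered end, which in this cluster starts with Hoxc4. Hoxc4, whose loss in mice was reported to disturb the esophagus and the vertebral column, read 13.32, 13.21 and 13.65 on the esophagus arrays of mice 1, 2 and 4 and 4.42, 4.63 and 4.70 on the stomach arrays. The tissues were far apart, and no stomach array rose above background. The log2 fold change was 8.81 ± 0.17 (SE, n = 3 per tissue, adjusted p = 9.39e-08). Against the lowest levels marked as above background, this was at least 408-fold in linear terms on the deposited scale. Here and below, an "at least" fold allows neither for the SE nor for another scaling. With an offset of 50, the log2 fold change of Hoxc4 was 7.46. Hoxc6, a gene of the cervicothoracic region and the mammary gland, read 12.95, 10.88 and 12.81 in the esophagus and 4.69, 4.56 and 4.87 in the stomach. Its lowest esophagus array was that of mouse 2, yet this array remained far above all stomach arrays. The fold change was 7.51 ± 0.50 (adjusted p = 5.13e-05, at least 166-fold).

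Hoxc5, the neighbour between them, read 10.81, 10.47 and 12.02 in the esophagus and 4.83, 4.99 and 4.49 in the stomach. This amounted to a log2 fold change of 6.33 ± 0.38 (adjusted p = 2.60e-05, at least 76.1-fold). Hoxc8, which is known from thoracic vertebrae and brachial motor neurons, read 7.49, 5.27 and 6.58 in the esophagus and 4.42, 4.63 and 4.78 in the stomach. Its esophagus arrays were spread widely, and that of mouse 2 was not well above background. The log2 fold change of 1.84 ± 0.49 (adjusted p = 0.0495, at least 3.27-fold) was just past the threshold and remained so under 3 of 14 alternative settings, of which the slide block and the fit without the esophagus array of mouse 4 give the same values. It was lost with the mouse as a replicate block (adjusted p = 0.0546), and without each array in turn except the esophagus array of mouse 2. The other 5 members, Hoxc9, Hoxc10, Hoxc11, Hoxc12 and Hoxc13, lay between 4.36 and 5.19 on all 6 arrays with log2 fold changes of -0.17 to 0.21, and none of these arrays was above background.

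HoxB showed a narrower group. Hoxb4, which is known for its role in blood stem cell renewal, read 9.60, 9.44 and 9.55 in the esophagus and 4.85, 4.56 and 4.49 in the stomach. The esophagus arrays were almost identical, with a mean of 9.53 ± 0.08 (SD, n = 3). Its log2 fold change was 4.90 ± 0.16 (adjusted p = 8.77e-07, at least 25.7-fold). Hoxb2, which patterns the hindbrain, read 8.44, 8.69 and 9.22 in the esophagus and 4.63, 4.99 and 4.56 in the stomach. Again the tissues were widely separated, with a log2 fold change of 4.06 ± 0.23 (adjusted p = 2.05e-05, at least 16-fold).

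Hoxb3 lies between these genes and was measured by a pair of probes that gave different answers. The brighter probe read 6.56, 5.65 and 6.90 in the esophagus and 5.59, 5.44 and 5.25 in the stomach. Its groups did not overlap, but the difference was not called (log2 fold change 0.94 ± 0.31, adjusted p = 0.0986). The other probe read 6.41, 6.46 and 6.41 in the esophagus and 4.49, 4.63 and 5.19 in the stomach, and its difference was called (1.65 ± 0.20, adjusted p = 0.00138). The array files assign the brighter probe to Hoxd3 as well as to Hoxb3. Whether the brighter Hoxb3 probe also took up RNA of a related gene was not tested. Hoxd3 itself, on its own probe, lay between 4.59 and 4.85 on all 6 arrays.

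The remaining 7 members of HoxB gave no call. Hoxb1, the lowest-numbered gene of the cluster, read 4.77, 4.75 and 4.78 in the esophagus and 4.65, 4.60 and 4.63 in the stomach, so its groups did not overlap although no array was above background. Its log2 fold change was 0.14 ± 0.13. Hoxb5, Hoxb6, Hoxb7, Hoxb8, Hoxb9 and Hoxb13 had log2 fold changes of -0.17 to 0.35, and Hoxb9 was above background on 1 stomach array with 5.19. By the brightest probes, HoxB was thus called at paralogs 2 and 4, and neither at paralog 1 nor at paralogs 5 to 13.

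HoxA held 4 called members, among them Hoxa3, Hoxa4 and Hoxa7. Hoxa3, which is needed for the thymus and parathyroid glands, read 7.48, 9.93 and 10.24 in the esophagus and 4.69, 4.75 and 4.83 in the stomach. Each esophagus array was far above the stomach, with mouse 1 lowest. Its log2 fold change was 4.46 ± 0.64 (adjusted p = 0.0032, at least 21.0-fold).

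Hoxa3 also had a fainter probe that did not show the difference. It lay upstream, at chr6:52149150-52149208, and read 5.08, 4.92 and 5.03 in the esophagus against 4.49, 4.92 and 4.72 in the stomach. It was above background on no array, so that the call of Hoxa3 rests on 1 probe. With the mean of both probes, Hoxa3 was still called, at a log2 fold change of 2.38 instead of 4.46.

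Hoxa7, a gene of the thoracic vertebrae, read 5.98, 8.31 and 8.22 in the esophagus and 5.36, 4.95 and 4.72 in the stomach. Mouse 1 lay close to the stomach, and the stomach array of that mouse was itself above background. The log2 fold change was 2.49 ± 0.58 (adjusted p = 0.0295), and the call was kept under 7 of 14 alternative settings and lost without any 1 of the 3 stomach arrays or without the esophagus array of mouse 2 or 4 (adjusted p = 0.073 to 0.111). Hoxa4, which helps to set the identity of cervical vertebrae, read 5.45, 6.62 and 6.51 in the esophagus and 4.56, 4.63 and 4.70 in the stomach. Its log2 fold change was 1.56 ± 0.30 (adjusted p = 0.0128, at least 2.72-fold), and the call was lost without the stomach array of mouse 1 (adjusted p = 0.0633) or of mouse 2 (adjusted p = 0.0577).

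Hoxa2 and Hoxa5 did not pass the test, although their groups did not overlap. Hoxa5, which is required for lung and trachea development, read 5.45, 8.05 and 8.38 in the esophagus and 4.83, 4.89 and 4.63 in the stomach (log2 fold change 2.51 ± 0.68, adjusted p = 0.0543). Hoxa2, which patterns the hindbrain and the arch that follows the jaw, read 4.95, 6.43 and 6.64 in the esophagus and 4.49, 4.85 and 4.94 in the stomach (1.25 ± 0.42, adjusted p = 0.107). In both genes the array of mouse 1 was not well above background. Without that array both passed the test, and the number of called members rose to 12. Over all genes, 16.9% had non-overlapping groups with the esophagus higher, against 15 of the 39 members.

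The upper part of HoxA was at or near the floor, with Hoxa9 at 5.17 to 5.64 on the 6 arrays. Hoxa6, between Hoxa5 and Hoxa7, read 4.76, 4.83 and 4.77 in the esophagus and 4.75, 4.79 and 4.94 in the stomach, and was above background on no array. The interval of its log2 fold change was -0.36 to 0.28 (95%). Hoxa9, Hoxa10, Hoxa11 and Hoxa13 had log2 fold changes of -0.16 to 0.22. Of these, Hoxa9 was above background on 1 array, the stomach of mouse 1 with 5.30, while its esophagus array of the same mouse read 5.64 without that mark.

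HoxD was at the floor almost throughout. Its exception was Hoxd9, which acts with its paralogs in the limbs and the lumbar vertebrae and which read 5.66, 6.03 and 5.40 in the esophagus and 4.91, 4.67 and 4.49 in the stomach. The groups did not overlap, yet the esophagus was above background on 2 of 3 arrays and at most 6.03. It differed by 1.0 ± 0.21 on the log2 scale (adjusted p = 0.0168, at least 1.78-fold), and the call was lost without the stomach array of mouse 2 (adjusted p = 0.0716) or the esophagus array of mouse 2 (adjusted p = 0.0505). Hoxd13 was above background on 1 esophagus array, and Hoxd1, Hoxd3, Hoxd4, Hoxd8, Hoxd10, Hoxd11 and Hoxd12 on none. Hoxd8 was the 1 member whose groups were separated with the stomach higher (log2 fold change -0.28 ± 0.15, adjusted p = 0.326), at levels below 5.10 in both tissues. Over all genes, 14.7% had groups separated in that direction.

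**Figure D2:**
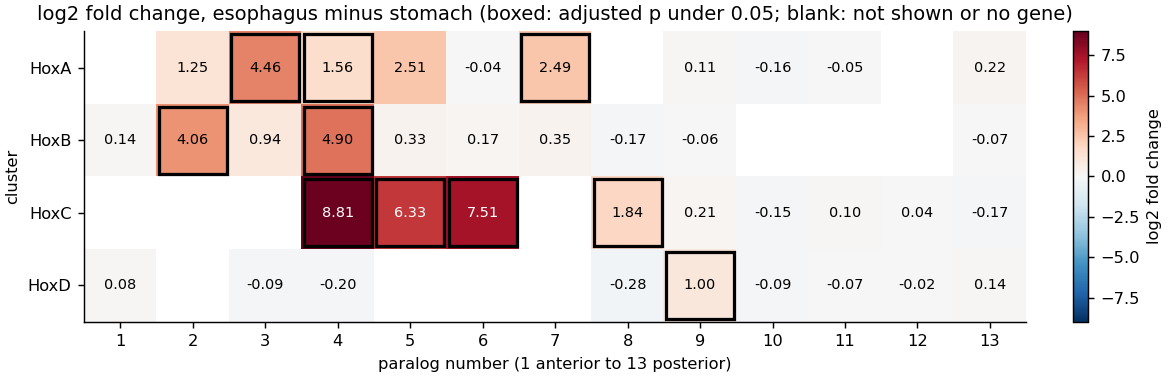
Log2 fold change of each Hox gene (esophagus minus stomach, colour and printed value) by cluster (rows) and paralog number (columns). Boxes mark an adjusted p under 0.05 and blank cells have no gene or are not shown. The boxed cells lie at paralogs 3, 4 and 7 in HoxA, at 2 and 4 in HoxB and 4 to 8 in HoxC, and Hoxd9 is alone in HoxD.

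By position along the numbering, 3 of 8 anterior members (paralogs 1 to 3), 7 of 15 central members (4 to 8) and 1 of 16 posterior members (9 to 13) were higher in the esophagus, against 7.15% of all genes. The median log2 fold change was 1.09 for the anterior, 1.56 for the central and -0.03 for the posterior members. Of the posterior members, 12 of 16 were above background on no array of either tissue. Paralog group 4 held the most calls, with Hoxa4, Hoxb4 and Hoxc4 called and Hoxd4 at 4.42 to 5.08 on all 6 arrays. Paralog groups 10 to 13 held none. These counts are descriptions of 39 linked genes, and the difference between the groups was not tested.

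Along the chromosome, the called genes lay in stretches. The Hox probes of HoxA span 103.4 kb on chromosome 6, and the probes of the called Hoxa3 and Hoxa7 lie 46.5 kb apart in it. In HoxB the called pair spans 32.3 kb of 170.7 kb on chromosome 11, in HoxC Hoxc4 to Hoxc8 span 46 kb of 108.2 kb on chromosome 15, and HoxD, with 1 called gene, spans 93.8 kb on chromosome 2. The stretches were not unbroken, since Hoxa5, Hoxa6 and, by its brighter probe, Hoxb3 were not called within them. At the upper border of HoxC, Hoxc8 and Hoxc9 lay at 46 kb and 52.5 kb from the Hoxc4 probe, with log2 fold changes of 1.84 and 0.21.

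**Figure D3:**
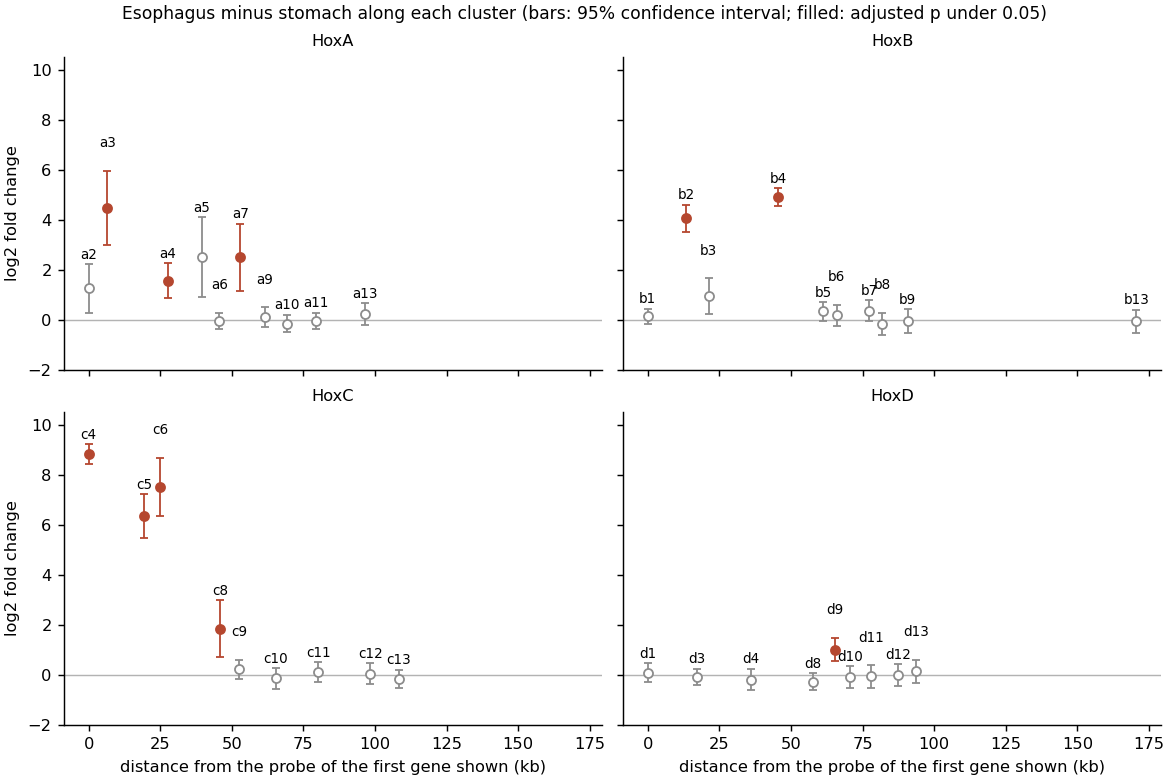
Log2 fold change (y axis, bars are 95% confidence intervals) against the distance in kb from the probe of the first gene shown (x axis) in each cluster. Filled red points have an adjusted p under 0.05. In HoxC the value is 8.81 at Hoxc4 and 0.21 at Hoxc9, 52.5 kb away.

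The esophagus organoids of the 3 mice did not differ from each other in the same way in all clusters. In HoxA, all 4 called members were lowest in mouse 1, with a median of -1.34 relative to the mean of the 3 esophagus arrays on the log2 scale. In HoxC, all 4 called members were lowest in mouse 2, with a median of -0.91, while mouse 1 was highest for Hoxc6 and Hoxc8. In HoxB the arrays were close, with ranges of 0.16 for Hoxb4 and 0.78 for Hoxb2. The ranges ran from 1.17 (Hoxa4) to 2.76 (Hoxa3) in HoxA and from 0.44 (Hoxc4) to 2.22 (Hoxc8) in HoxC. For Hoxc4 the arrays were thus also close, at 13.32, 13.21 and 13.65 in mice 1, 2 and 4. The called genes of HoxA and of HoxC thus each shared their lowest mouse, which was not the same in both clusters. This is a description of 3 animals and was not tested.

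**Figure D4:**
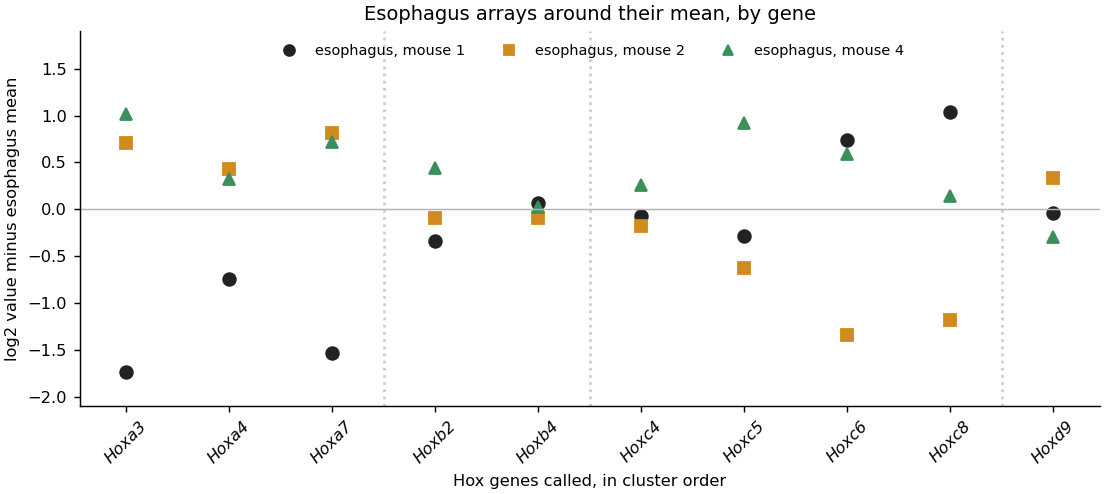
Log2 value of each esophagus array minus the mean of the 3 esophagus arrays (y axis) for 10 called Hox genes in cluster order (x axis). Black circles are mouse 1, orange squares mouse 2 and green triangles mouse 4. Mouse 1 lies lowest in the 3 HoxA genes shown and mouse 2 in all 4 HoxC genes.

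Other properties of the arrays also varied between these mice. The 6 immune markers had a mean of their log2 values of 8.02, 7.88 and 7.48 in the esophagus of mice 1, 2 and 4, and Cd68 of this list read 14.77, 12.94 and 11.80, whereas Ptprc, the pan-leukocyte gene, was above background on no array. The mean of the log2 values of the 7 squamous markers was 14.54, 14.67 and 14.08. The esophagus array of mouse 4 was on a slide of its own. Within the other slide, which is the comparison without that array, 9 members were called. The part of these properties in the spread was not tested.

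Promoter sequence was looked at because the called members shared a direction, higher in the esophagus. RefSeq entries (GRCm38.p6) were found for 22 of the 39 genes, 5 of them called. The 250 bases before the start of Hoxb4 and Hoxc4, paralogs that were both called, and of Hoxa7 are shown. These 3 held a match to a string searched, whereas those of Hoxa3 and Hoxd9, which are not shown, held none. Capitals mark AGGTCA, the half-site of nuclear receptors such as the retinoic acid receptor, or TTTATG, a core letter string of Cdx sites, on either strand.
Hoxb4 (chr11:96318017-96318266, plus strand): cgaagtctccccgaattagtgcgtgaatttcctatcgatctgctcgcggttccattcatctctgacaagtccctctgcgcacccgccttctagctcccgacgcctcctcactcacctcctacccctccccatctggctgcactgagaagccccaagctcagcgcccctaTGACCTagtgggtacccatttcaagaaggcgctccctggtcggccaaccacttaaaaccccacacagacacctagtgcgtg
Hoxc4 (chr15:103034145-103034394, plus strand): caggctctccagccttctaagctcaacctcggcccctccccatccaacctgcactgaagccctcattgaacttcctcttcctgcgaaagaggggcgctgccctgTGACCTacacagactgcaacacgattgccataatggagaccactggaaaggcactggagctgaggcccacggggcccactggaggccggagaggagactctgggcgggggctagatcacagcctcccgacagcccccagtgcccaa
Hoxa7 (chr6:52218574-52218823, minus strand): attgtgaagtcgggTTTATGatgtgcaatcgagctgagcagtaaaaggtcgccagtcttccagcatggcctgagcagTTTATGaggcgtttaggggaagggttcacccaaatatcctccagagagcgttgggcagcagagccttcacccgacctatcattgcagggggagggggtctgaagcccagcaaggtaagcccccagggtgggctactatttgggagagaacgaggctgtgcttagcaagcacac
AGGTCA occurred in 2 of the 5 promoters of called members, in 4 of the 19 promoters of other Hox genes and in 14% of all promoters of this length. TTTATG occurred in 1 of 5, in 4 of 19 and in 10.8%. TGATNNAT, a string of joint Pbx and Hox sites, occurred in 0 of 5, in 4 of 19 and in 7.68%. The other strings searched on both strands were CCAAT (0 of 5, 14 of 19 and 33.8%), TATAAA (0 of 5, 4 of 19 and 12.4%) and CACGTG (0 of 5, 4 of 19 and 6.02%). These are matches of letters in a short window.

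The clusters also hold transcripts that encode no Hox protein, among them antisense RNAs. Of 37 other probes between the outermost Hox probes of the 4 clusters, 2 were called, both higher in the esophagus, against 7.15% of all genes. The count is of single probes, several of them for the same transcript, whereas the share is of genes by their brightest probe. Hoxaas2 is read from the strand opposite to Hoxa3, and its probe overlaps that of Hoxa3. It read 5.0, 5.62 and 6.04 in the esophagus and 4.35, 4.48 and 4.40 in the stomach. It was thus higher in the esophagus, as was Hoxa3, and lowest in mouse 1, with a log2 fold change of 1.14 ± 0.26 (adjusted p = 0.0251, at least 1.78-fold), and the call was lost without any 1 stomach array or without the esophagus array of mouse 2. Gm11536, antisense between Hoxb3 and Hoxb4, read 5.40, 5.81 and 6.22 in the esophagus and 4.80, 4.99 and 4.64 in the stomach (1.0 ± 0.23, adjusted p = 0.0268), and no alternative was run for it. The noncoding RNAs Hottip, Hotair, Hoxa11os, Hoxaas3, Hoxb5os and Hoxd3os1 were above background on no array. Of the HoxD interval, Haglr alone was above background on all 6 arrays, at 5.69 to 6.18, and it was not called.

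Of 13 genes that flank the clusters, 1 was called, against 14.9% of all genes in either direction. It was Snx10, a sorting nexin near HoxA, with 8.10, 7.76 and 8.34 in the esophagus and 10.45, 10.37 and 10.67 in the stomach (log2 fold change -2.43 ± 0.19, adjusted p = 1.09e-04), opposite in direction to the called HoxA members. The homeobox genes next to HoxA and HoxD, Evx1 and Evx2, had log2 fold changes of -0.21 and -0.01. Skap2, which borders HoxA, read 12.11, 12.54 and 12.41 in the esophagus and 11.97, 12.06 and 12.20 in the stomach and was not called (0.27, adjusted p = 0.389).

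Hox proteins bind DNA together with homeodomain partners of the TALE class, Pbx, Meis and Pknox. All 9 partners were above background on at least 1 array, and their log2 fold changes ran from -1.01 to 0.97. Meis1 read 9.74, 10.34 and 10.26 in the esophagus and 9.40, 9.12 and 8.92 in the stomach (log2 fold change 0.97 ± 0.21, adjusted p = 0.0238), and this call was kept under 7 of 14 alternative settings and lost with the mouse as a replicate block and without the stomach or the esophagus array of mouse 2 or of mouse 4. Pknox1 read 10.10, 9.92 and 10.05 against 9.23, 9.28 and 9.27 (0.77 ± 0.14, adjusted p = 0.00854), and 1 of its 2 probes was called. Meis3 went the other way, with 6.52, 6.53 and 6.31 in the esophagus and 7.42, 7.39 and 7.57 in the stomach (-1.01 ± 0.14, adjusted p = 0.00312), and 1 of its 3 probes was called. The other 6 were not called, so that 3 of 9 differed in either direction, against 14.9% of all genes.

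Cdx and ParaHox genes are the closest relatives of the Hox clusters, and Cdx proteins are regulators of posterior Hox genes in the embryo. Of 6 such genes, 2 were higher in the stomach, against 7.70% of all genes, and the other 4 were not called. Cdx2, the intestinal member, read 4.50, 4.30 and 4.71 in the esophagus and 8.73, 8.76 and 9.91 in the stomach (log2 fold change -4.63 ± 0.32, adjusted p = 6.1e-05, at least 18.1-fold). Pdx1, which marks antrum, duodenum and pancreas, read 4.84, 4.60 and 4.77 in the esophagus and 6.76, 6.72 and 7.74 in the stomach (-2.34 ± 0.28, adjusted p = 0.00118, at least 4.30-fold). Both were thus above background on every stomach array and on no esophagus array. Cdx1, Cdx4, Gsx1 and Gsx2 were above background on no array. Of the Hox genes, the posterior members remained near the floor on these same stomach arrays, at 4.18 to 5.30.

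**Figure D5:**
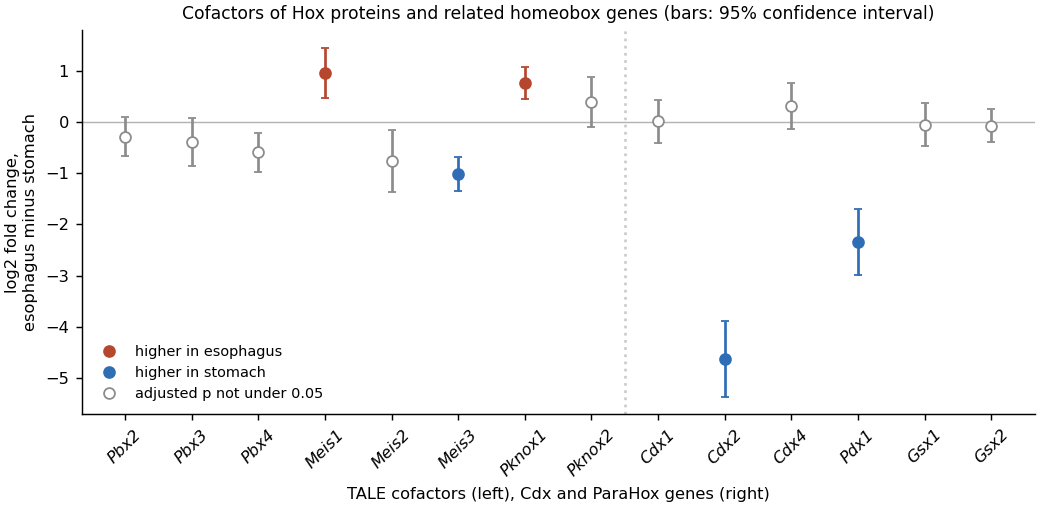
Log2 fold change (esophagus minus stomach, y axis, bars are 95% confidence intervals) of 8 TALE partners and 6 Cdx and ParaHox genes (x axis). Red points were called higher in the esophagus, blue points higher in the stomach and open grey points not called. Cdx2 at -4.63 and Pdx1 at -2.34 lie farthest from 0.

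Polycomb proteins keep Hox genes silent and Trithorax proteins keep them active. Of their genes on the array, 3 of 19 and 2 of 10 were called in either direction, against 14.9% of all genes. Of 19 Polycomb genes, all above background on every array of both tissues, 1 was called with the esophagus higher and 2 with the stomach higher. Cbx2 rose in the esophagus (log2 fold change 0.82 ± 0.20, adjusted p = 0.0325), and Cbx6 (-1.62 ± 0.36, adjusted p = 0.0231, 2 of 3 probes called) and Cbx7 (-0.71 ± 0.18, adjusted p = 0.0398, 1 of 2 probes called) were higher in the stomach. Ezh2, the methyltransferase of the complex, read 9.76, 10.21 and 10.62 in the esophagus and 10.03, 10.00 and 10.11 in the stomach (0.15 ± 0.22, adjusted p = 0.77). Of 10 Trithorax genes, Psip1 (1.09 ± 0.28, adjusted p = 0.0432) and Kdm6b, a demethylase that removes the Polycomb mark (0.84 ± 0.22, adjusted p = 0.0471), were higher in the esophagus. Each of these 5 calls was kept under 5 to 8 of the 14 alternative settings, and each was lost without the stomach array of mouse 1 and without the esophagus array of mouse 2, among others. The calls of Cbx7 and Kdm6b were also lost with the mouse as a replicate block.

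The markers of squamous and columnar epithelium separated the arrays as labelled. In the esophagus, 6 of 7 squamous genes were higher, against 7.15% of all genes. Krt5 was among the 6 (17.07, 17.08 and 17.08 against 4.85, 5.19 and 5.39). Trp63 was the exception by its brightest probe (log2 fold change -1.22), while its other 3 probes were called higher in the esophagus, by 6.06 to 8.55, and the mean of its probes was higher in the esophagus. In the stomach, 11 of 12 columnar genes were higher, against 7.70% of all genes. Tff1 was among the 11 (5.66, 5.67 and 5.30 against 17.88 on each stomach array). Intestinal genes were higher in the stomach in 3 of 5 cases, namely Cdx2, Vil1 and Lyz1, against 7.70% of all genes. Fabp2 of this list read 6.88, 8.33 and 9.86 in the esophagus and 6.68, 6.14 and 6.53 in the stomach, without overlap, and was not called (log2 fold change 1.9, adjusted p = 0.112).

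Mesenchyme was examined because Hox genes are also active there. Of 12 fibroblast markers, Col1a1, Col1a2, Pdgfra, Pdgfrb, Lum, Thy1, Dpt and Prrx1 were above background on no esophagus array. Col3a1 and Dcn were above background on 1 esophagus array each, Col3a1 also on 2 stomach arrays, and neither was called. Twist1 and Twist2 were above background on all 3 esophagus arrays. Twist1 read 7.71, 6.62 and 7.49 in the esophagus and 4.65, 4.89 and 4.59 in the stomach (log2 fold change 2.56, adjusted p = 7.44e-04), and Twist2 read 7.40, 7.81 and 7.85 against 4.85, 4.63 and 4.49 (3.03, adjusted p = 2.77e-05). The mean of the 12 log2 values was 5.22 to 5.31 in the esophagus and 4.86 to 4.93 in the stomach, and the median log2 fold change of the list was 0.00. Smooth muscle (0 of 6 called by limma) and endothelial (0 of 5) markers gave no call, with 1 of each list at an unadjusted p under 0.05. Of the 6 smooth muscle markers, 1 was above background on all 3 arrays of each tissue and 3 on at least 1 array. Of the 5 endothelial markers, these numbers were 2 and 4. Over all genes 14.9% were called, so that 0 calls in lists of 6 and 5 genes say little about these cell types. Of 6 immune markers, Itgam was higher in the stomach by 1 of its 3 probes, the other 2 being above background on no array, and of 6 neural markers, Elavl4 and Tubb3 were higher in the esophagus (Tubb3 by 4.37, adjusted p = 0.00271, and Elavl4 with a call of 1 of its 2 probes that was lost without either array of mouse 2 or the esophagus array of mouse 1) while Sox10 was above background on no array. The part of other cell types in the Hox differences was not tested.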

How the data were processed

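Total RNA of 6 organoid samples was labelled with Cy3 and hybridised to single-colour Agilent mouse arrays. Per the file headers, the authors read the scans with Feature Extraction 11.5.1.1, and the deposited scanner files hold spot intensity, local background, background-subtracted signal and flags, with coordinates on mm9. The authors' deposited table of log2 values is background corrected and quantile normalized. The offset is not given in the sources used here, and an offset shrinks the fold changes of dim genes. Columns matched their own array (Spearman 0.9912 to 0.9951), had medians of 5.33 to 5.34 and rose by 0.975 to 1.037 per log2 unit of raw intensity. Their 117 to 184 empty cells per array were outlier-marked spots, none of them Hox spots. The authors' methods threshold of p under 0.05 and 1.5-fold was kept as an alternative.

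In R 4.3.3 with limma 3.58.1, spots of a probe were averaged, all 6 arrays entered 1 linear model by tissue (lmFit, eBayes, no block), and p-values were adjusted over 55681 probes. The code was tested on simulated data. Where a gene was above background on no array of a tissue, "at least" folds were computed against the higher of its own value and the lowest value marked as above background on each array. They are point estimates on the deposited scale and not limits of a confidence interval. Mice pair the arrays by animal, although deviations of the 2 arrays of a mouse hardly correlated (r = 0.025, 0.012 and -0.008, between mice -0.073 to 0.04). Every Hox gene was accounted for, and values of each array were given for members that were called or that rose above background on each array of a tissue, for Hoxa2 and Hoxa5, whose groups were separated, and for members chosen after their values were seen. Protein sequences were not used here, and some items enter the counts but are not reported here by name or sequence. The Hox genes, gene lists and tests were chosen with earlier results of these data known.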

Additional observations from a re-analysis of the deposited data

How the results depend on the processing

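Hoxa3, Hoxb2, Hoxb4, Hoxc4, Hoxc5 and Hoxc6 were called higher in the esophagus under all 14 alternatives run, of which the slide block and the fit without the esophagus array of mouse 4 are 1 and the same comparison, and no member was called higher in the stomach under any of them. Hoxa4 kept its call under 10 of 14, Hoxd9 under 11, Hoxa7 under 7 and Hoxc8 under 3. None of the 11 called members and Hoxb3 reversed direction under an alternative. With the mouse as a replicate block, 11 members were called, 10 of them shared, with Hoxc8 lost and Hoxa2 gained, and no other Hox call changed. The block gave 11 calls instead of 12 among the regulator, cofactor, neighbour and cluster noncoding lists, with Meis1, Cbx7 and Kdm6b among those lost. It gave 9 instead of 8 among the lists of other cell types (fibroblast, smooth muscle, endothelium, immune, neural and intestine). The number of calls was 8 with an offset of 50, 13 with the 75th percentile of processed signal, 9 with the slide as a block and 14 at the methods' unadjusted threshold (21.7% of all genes). Leaving out 1 array at a time gave 6 to 12 calls among the regulator, cofactor, neighbour and cluster noncoding lists and 7 to 10 among those of other cell types. It gave 7 to 12 Hox calls, with a median log2 fold change of the Hox genes of 0.13 to 0.21. That median was 0.17 with an offset of 16, 0.08 with an offset of 50 and 0.26 with the 75th percentile, where the median of all genes also moved from 0.03 to 0.19. The median among bright probes alone was not run. Members above background on at least 1 array numbered 15 in the esophagus and 4 in the stomach, against 9 and 0 on all 3.

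Sizes depend on how dim values are scaled. The log2 fold change of Hoxc4 ran from 7.46 to 11.87, that of Hoxb4 from 3.64 to 7.91 and that of Hoxa3 from 3.36 to 7.55 over the 3 scalings tried, and Hoxa3 fell to 2.38 with the mean of its probes. Signal over background limits what the 22 members near the floor in both tissues can show, and 3 arrays a tissue limit the precision.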
